A study of Mus musculus with 15 samples.

Results

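The 6 libraries made from the Hmga1 knockout (KO) clone and from its descendants were compared as 1 group with the 3 libraries of the parental wild type (WT). They are 6 of the 15 libraries of the series. The genes described are those on which the KO clone and both lines derived from it, labelled Hmga1 add-back and Hmga2 add-back, differed from WT alike. The counts of Hmga1 itself were at the KO level in the libraries labelled Hmga1 add-back, so that they do not show the insert. The inserted gene was visible only in the libraries of the Hmga2 add-back. For the Hmga1 add-back the paper reports, by Western blot, Hmga1 protein at a level comparable to WT. Of 21662 genes in the table, 13912 reached a mean of 10 counts over the 9 libraries and were tested, and 15 of them were called.

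All cells were mouse embryonic stem cells (ESC), pluripotent cells of the early embryo, of 1 parental line of mixed 129Sv-C57Bl/6 background that also expresses the biotin ligase BirA. In the KO line Cas9 cutting had shifted the reading frame of Hmga1, and it was grown from a single clone. Both add-back lines, of Hmga1 and of Hmga2, are KO cells that received a biotin-tagged cDNA of the respective gene, driven by the CAG promoter, at 1 defined genomic site by Cre recombination. Each genotype is therefore 1 line, and the 3 derived lines share the KO clone as ancestor. WT had libraries a, b and c and each derived line had a and b, where the letter stands for a batch of library preparation and sequencing. The cultures of a line were harvested on different days, so that p-values measure the spread between cultures and libraries and not between clones. WT c is alone in its batch and its batch term absorbs it, which leaves WT a and WT b as the basis of the comparison.

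Hmga1 and Hmga2 are small chromatin proteins that hold on to the minor groove of AT-rich DNA with short motifs called AT-hooks, and Hmga1 is abundant in ESC. A difference that KO cells share with their descendants can belong to the loss of the gene or to the single cell from which the clone grew, and these cannot be told apart from the 9 libraries alone. In the paper the add-backs served to test whether the tagged proteins bind differently when endogenous Hmga1 is absent. The paper also compared the RNA of both add-backs with that of the parental WT, at genes and at repeats. Here the add-backs are used to ask which of the differences go back when an Hmga protein is supplied again. A line with a full deletion of the Hmga1 coding sequence was made separately and sequenced with 3 WT libraries of its own. The paper made it because traces of aberrant Hmga1 protein could remain in KO cells. Here it is used to ask which of the differences recur.

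Counts summed to between 13465399 and 34952136 per library, with all libraries of batch a above those of batch b. Levels are given as CPM, that is counts scaled to a common library size, with sizes normalized by edgeR's TMM method. The 7 markers of ESC (Pou5f1, Sox2, Nanog, Zfp42, Esrrb, Klf4 and Dppa5a) summed to between 3954 and 4313 CPM in WT and between 4146 and 4673 in the derived libraries. Of the 7 markers of feeder fibroblasts, on which ESC can be grown, only Col1a1 and Thy1 passed the filter. Their sum was 3.03 to 6.55 CPM in WT and 6.52 to 12.7 in the derived libraries, and Dcn, Lum and Postn had at most 4 counts in any library. Col3a1 went the other way, with 16, 0 and 18 counts in WT a, b and c and at most 2 in any derived library, and Col1a2 had 14, 6 and 20 counts in WT and 2 to 17 in the derived libraries. The part of feeder cells in the results was not tested.

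The gene that was cut came first as a check of the labels. Exon 3 of Hmga1 is shown with the start of the following intron, since the KO clone was made by a cut at this boundary. The 84 exonic bases and 16 intronic bases (NCBIM37, chr17:27697873-27697972, plus strand) read as follows, with the first 2 bases of the intron, the splice donor, in capitals.
Hmga1 exon 3: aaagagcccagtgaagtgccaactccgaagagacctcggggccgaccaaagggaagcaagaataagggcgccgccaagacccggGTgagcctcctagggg

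Hmga1 (chr17:27693565-27700619) had 464, 276 and 221 CPM in WT a, b and c. It had 217 and 96.1 CPM in KO a and b, 184 and 123 in the libraries labelled Hmga1 add-back, and 138 and 101.1 in those labelled Hmga2 add-back. All 6 derived libraries were below all 3 WT libraries, with KO a and WT c almost at the same level. The log2 fold change of the derived group against WT was -1.37 (standard error, SE, 0.14, 95% interval -1.68 to -1.06, adjusted p = 0.00348). Here and in what follows, p comes from the quasi-likelihood test of edgeR, adjusted by the Benjamini-Hochberg method over all genes tested. Counts thus did not show the inserted Hmga1 cDNA, and the libraries labelled Hmga1 add-back differed from KO by 0.04 on the log2 scale (95% interval -0.34 to 0.42). Such counts do not measure protein, which the paper reports as restored in this line. Hmga2 had 12.8 to 23.8 CPM in WT, 18.9 and 13.8 in KO a and b, and 18.5 and 17.8 in the libraries labelled Hmga1 add-back, whereas those labelled Hmga2 add-back had 249 and 222. The inserted gene was therefore visible in the counts of the Hmga2 add-back.

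Across the transcriptome 15 of 13912 genes (0.108%) were called between derived lines and WT, where called means at least 2-fold different with an adjusted p under 0.01. Higher in the derived lines were 6 genes (0.0431% of those tested): Tuba3a, Calml4, Hydin, Slc11a1, Arhgap30 and Cpn1. Lower were 9 genes (0.0647%): Eif2s3y, Uty, AI413582, Wt1, Efnb2, Cdh2, Lpar6, Hmga1 and Nudt3. For each of the 15 the 6 derived libraries and the 3 WT libraries did not overlap, which was the case for 8.84% of all genes tested (717 higher and 513 lower in the derived lines). The 15 were chosen by this same comparison, so that their separation is a description. At a wider threshold, which here and below means an adjusted p under 0.05 and again at least 2-fold, the same comparison called 148 genes (1.06%), 100 higher (0.719%) and 48 lower (0.345%), and before adjustment p was below 0.05 for 3137 genes. The median log2 fold change over all genes was 0.00. The count at the stricter threshold rested on single libraries, with 0 genes called without WT a, 204 without WT b and 3 to 20 without any one derived library, while the direction of the 15 genes stayed the same in every such fit.

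**Figure D1:**
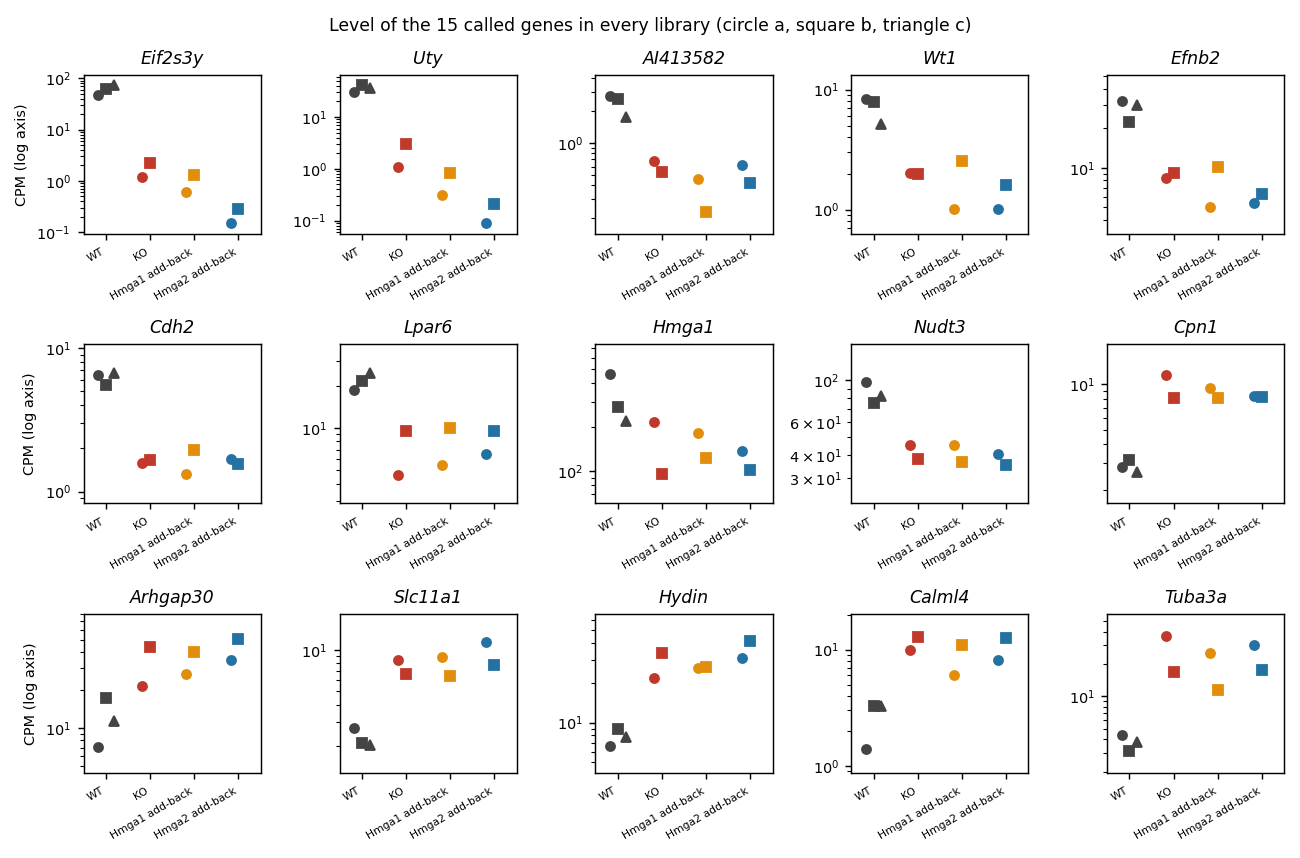
CPM of each called gene (log axis) in every library, with WT in dark grey, KO in red, the Hmga1 add-back in orange and the Hmga2 add-back in blue, and the batch given by the symbol. In each of the 15 panels the 6 derived libraries lie on 1 side of the 3 WT libraries.

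Tuba3a, which encodes an alpha-tubulin, a subunit of microtubules, rose most among the called genes. It had 4.36, 3.10 and 3.74 CPM in WT a, b and c, against 36.8 and 16.7 in KO a and b, 25.5 and 11.5 in the Hmga1 add-back, and 30.1 and 17.5 in that of Hmga2. Every derived library was above every WT library, and batch a was higher than batch b in each derived line. The log2 fold change was 2.61 (SE 0.24, adjusted p = 0.00291, edgeR as above). Its near-identical copy Tuba3b lies on the same chromosome and shares with it 34.4% of the stretches of 47 bases found in the transcripts of Tuba3a. Tuba3b had 1.11 to 2.02 CPM in WT and 6.38 to 11.2 in the derived libraries, with a log2 fold change of 2.42 (SE 0.34, adjusted p = 0.0157, edgeR). Since a read with several alignments was placed at random, the values of the 2 genes are not independent. Of the 6 alpha-tubulin genes tested these were the only ones called at the wider threshold, and the other 4, Tuba1a, Tuba1b, Tuba1c and Tuba4a, lay between -0.29 and -0.20.

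The 250 bases before the annotated starts of Tuba3a (NCBIM37, chr6:125236061-125236310, minus strand) and Tuba3b (chr6:145564027-145564276, plus strand) are shown because the 2 genes moved together. Capitals mark CCAAT, a short promoter motif, searched on both strands as CCAAT or ATTGG.
Tuba3a: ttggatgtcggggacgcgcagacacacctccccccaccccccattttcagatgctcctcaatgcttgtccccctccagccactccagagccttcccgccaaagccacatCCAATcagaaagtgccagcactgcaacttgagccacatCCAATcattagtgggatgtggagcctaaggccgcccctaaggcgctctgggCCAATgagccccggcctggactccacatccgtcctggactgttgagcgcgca
Tuba3b: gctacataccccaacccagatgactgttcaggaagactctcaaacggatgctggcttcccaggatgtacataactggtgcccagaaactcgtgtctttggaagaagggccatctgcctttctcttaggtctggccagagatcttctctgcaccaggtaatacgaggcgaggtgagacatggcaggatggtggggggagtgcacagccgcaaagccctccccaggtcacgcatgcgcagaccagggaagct

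The window of Tuba3a held 3 matches and that of Tuba3b 0, and 36.0% of the 13659 windows of the same length before tested genes held at least 1. Aligned without gaps, the 2 windows had the same base at 67 of 250 positions. AATT, a short AT-rich motif of the kind that AT-hooks can hold, was found in neither, against 36.7% of all windows. Among the 15 called genes it was found in 4 windows, those of Calml4, Cpn1, Slc11a1 and Uty.

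Hydin (chr8:112790877-113134153) encodes a very large protein of the central apparatus of motile cilia. It stood at 6.64, 9.0 and 7.80 CPM in WT a, b and c. KO a and b had 21.8 and 33.8 CPM, the Hmga1 add-back 26.1 and 26.5, and the Hmga2 add-back 30.8 and 41.8. The lowest derived library was thus far above the highest WT library, and the log2 fold change was 1.95 (SE 0.20, adjusted p = 0.00348, edgeR). Per kilobase of exon its level stayed low, with a mean of 0.441 in WT and 1.70 in the derived lines, against 39.3 and 18.5 for Nudt3. No other of the 26 axoneme and motile cilium genes tested was called at the wider threshold. Their median log2 fold change was 0.23 and ranged from -0.02 to 0.27 over the alternatives, so that its sign was not settled. Rfx2 and Rfx3, transcription factors of ciliary genes, had values of 0.23 and -0.13, and neither passed the test.

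The 250 bases before Hydin (chr8:112790627-112790876, plus strand) are shown with, in capitals, a match to GTTGC followed after 4 bases by its reverse complement GCAAC. This inverted repeat has the form of the X-box, the element bound by RFX factors, and was searched after the window had been read.
Hydin: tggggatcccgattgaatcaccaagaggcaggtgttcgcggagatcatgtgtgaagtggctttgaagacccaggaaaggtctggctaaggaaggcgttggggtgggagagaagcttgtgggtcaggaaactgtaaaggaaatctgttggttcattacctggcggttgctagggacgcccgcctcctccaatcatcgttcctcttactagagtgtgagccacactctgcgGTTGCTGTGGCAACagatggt

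The match ends 7 bases before the annotated start. It occurred in 18 of 13659 windows (0.132%), in 1 of the 26 windows of the axoneme list, that of Hydin, and in no other called gene.

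The other 4 genes that rose have varied roles. Arhgap30, which encodes a GTPase-activating protein, had 7.08, 17.3 and 11.5 CPM in WT a, b and c, whereas the derived libraries had 21.7 to 50.1. Its log2 fold change was 1.66 (SE 0.21, adjusted p = 0.00862, edgeR). Calml4, a calmodulin-like gene, went from 1.39 to 3.28 CPM in WT to 6.06 to 12.8 in the derived libraries (log2 fold change 2.21, SE 0.26). Slc11a1, a transporter of divalent metal ions known from phagocytes, went from 2.03 to 2.69 CPM to 6.45 to 11.5 (1.79, SE 0.21). Cpn1, the catalytic subunit of carboxypeptidase N, went from 2.61 to 3.18 CPM to 8.10 to 11.4 (1.59, SE 0.20). The batches were ordered differently in these genes. In Arhgap30 batch b was above batch a in WT and in each derived line, whereas in Slc11a1 batch a was above batch b throughout.

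Hmga1 was not alone in its neighbourhood. Within 500 kb of the gene 13 others were tested, and the 2 that follow it directly were the only ones lower, both called. AI413582 (chr17:27700520-27702694) runs in the opposite direction and its annotated end overlaps that of Hmga1 by 100 bases. It had 2.72, 2.56 and 1.74 CPM in WT a, b and c, against 0.673 and 0.532 in KO, 0.460 and 0.225 in the Hmga1 add-back, and 0.622 and 0.423 in that of Hmga2. All derived libraries were below the WT range, on 3 to 24 counts each, and the log2 fold change was -2.40 (SE 0.29, adjusted p = 0.00813, edgeR). Reads were counted by strand, which separates AI413582 from Hmga1 as far as the libraries are strand-specific.

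Nudt3 (chr17:27716327-27760410), an enzyme that removes phosphates from diphosphoinositol polyphosphates, lies on the minus strand, 15707 bases beyond the end of Hmga1. It had 97.2, 75.8 and 82.8 CPM in WT a, b and c. KO a and b had 45.2 and 38.1 CPM, the Hmga1 add-back 45.3 and 36.7, and that of Hmga2 40.4 and 35.3. The 6 values lay within a narrow range at 46.6% of WT in the fit, the log2 fold change being -1.10 (SE 0.08, adjusted p = 0.000515, edgeR). It had the smallest fold change of the called genes and the smallest standard error.

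The other 11 neighbours had values above 0. Rps10, a ribosomal protein gene and the next one tested, had a log2 fold change of 0.20 (SE 0.11, adjusted p = 0.278, edgeR). Pacsin1, which encodes a protein of membrane endocytosis, followed with 4.90 to 7.60 CPM in WT and 11.2 to 22.1 in the derived libraries, and was called at the wider threshold (1.43, SE 0.27, adjusted p = 0.0371, edgeR). The median of the 13 neighbours was 0.17, with 11 above 0 and 2 below, against 6969 above and 6943 below over all genes.

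**Figure D2:**
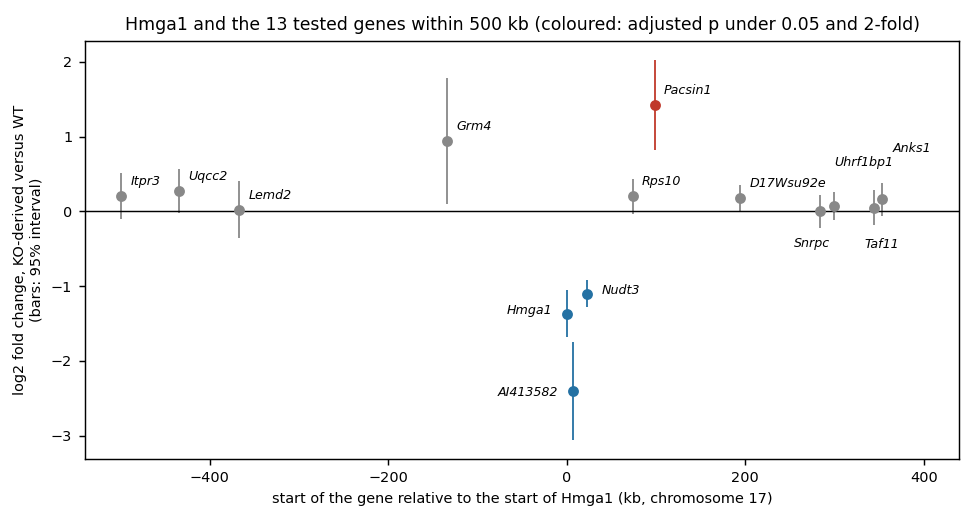
Log2 fold change of the derived lines against WT with its 95% interval (vertical axis) for Hmga1 and the 13 tested genes within 500 kb, by the distance of their lower coordinate from that of Hmga1 in kb. Hmga1, AI413582 and Nudt3 follow each other with values of -1.37, -2.40 and -1.10, Pacsin1 stands at 1.43, and the intervals of most others reach 0.

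The largest falls were on the Y chromosome. Eif2s3y encodes the Y copy of a subunit of the translation initiation factor eIF2, and Uty a Y-linked relative of the histone demethylase Kdm6a. Eif2s3y had 47.6, 61.6 and 73.9 CPM in WT a, b and c, and in a and b it had 1.18 and 2.20 in KO, 0.603 and 1.27 in the Hmga1 add-back, and 0.148 and 0.282 in that of Hmga2. Its log2 fold change was -5.94 (SE 0.38, adjusted p = 0.000275, edgeR). Uty had 30.9, 41.4 and 37.0 CPM in WT, and 0.0889 to 3.04 in the derived libraries, a log2 fold change of -5.47 (SE 0.52, adjusted p = 0.00291, edgeR). Both genes were lowest in the Hmga2 add-back and highest, among derived lines, in KO.

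Counts over batches a and b give the order of the lines more closely. For Eif2s3y KO had 71 counts, the Hmga1 add-back 38 and that of Hmga2 9, against 2299 in WT. After scaling this was 2.82% of WT (95% exact interval 2.19 to 3.57), 1.53% (1.08 to 2.10) and 0.363% (0.166 to 0.691). Uty, in the same order of lines, stood at 4.72% of WT (3.71 to 5.92), 1.35% (0.842 to 2.05) and 0.369% (0.135 to 0.805). Ddx3y, an RNA helicase, stood at 24.97% (19.9 to 31.1), 8.51% (5.84 to 12.1) and 2.44% (1.16 to 4.54). These intervals cover counting error only, and within it each of the 3 genes was lower in an add-back than in KO. The tests over libraries were less firm: for Eif2s3y the Hmga2 add-back differed from KO by -2.95 on the log2 scale (95% interval -3.78 to -2.12, adjusted p = 0.101, edgeR), and for Uty by -3.67 (-4.80 to -2.55, adjusted p = 0.134, edgeR). Of the 15 Y-linked genes listed 4 were tested, and Uba1y, with 39 counts over WT a and b together, was the only one not called at the wider threshold. It stood at 84.2% of WT in KO (52.0 to 136), so that a fall was not shown there. In the Hmga1 add-back it stood at 40.3% (21.4 to 72.9) and in that of Hmga2 at 4.76% (0.557 to 18.4). The X paralogs of these genes were called in 0 of 7 cases, and their median log2 fold change was -0.15. Fewer cells with a gene and less RNA per cell cannot be told apart in such libraries.

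The remaining 4 lower genes encode proteins of cell contact, signalling and development. Cdh2, which encodes N-cadherin, had 6.48, 5.51 and 6.68 CPM in WT a, b and c, whereas the derived libraries had 1.32 to 1.95 (log2 fold change -1.90, SE 0.20). Efnb2, which encodes ephrin-B2, a ligand of Eph receptors, had 32.2, 22.2 and 29.97 CPM in WT and 4.997 to 10.1 in the derived libraries (-1.93, SE 0.24). Wt1, a zinc finger transcription factor of kidney and gonad development, had 8.35, 7.91 and 5.19 CPM in WT and 1.01 to 2.55 in the derived libraries (-2.32, SE 0.28). Lpar6, a receptor for lysophosphatidic acid, had 18.6, 21.6 and 24.7 CPM in WT and 4.63 to 9.90 in the derived libraries (-1.48, SE 0.16). In Lpar6 the libraries of batch a were lower than those of batch b in every line. The adjusted p of the 4 genes lay between 0.00348 and 0.00884 in edgeR's quasi-likelihood test. Lpar6 lies within the span of Rb1, on its opposite strand.

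How far the add-backs came back was measured on the log2 scale, as the share of the KO difference from the WT library of the same batch that each line kept. All 15 genes kept at least 50% in both add-backs. The share lay between 80.0% (Calml4) and 139% (Uty) in the Hmga1 add-back and between 84.7% (Lpar6) and 172% (Uty) in the Hmga2 add-back. The test over all derived lines picks genes on which the lines coincide, so these shares are a description, and the 3 lines were set against the same WT libraries. The direct test of an add-back against its parent uses no WT library in the difference. For the Hmga1 add-back edgeR called 0 genes (0%) and so did limma-trend, although 390 had p below 0.05 before adjustment. For the Hmga2 add-back edgeR called 1 gene (0.00719%), Hmga2 itself, with a log2 fold change of 3.86 (95% interval 3.39 to 4.32, adjusted p = 0.000558, edgeR).

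The intervals of the direct test say how large a return could have been missed. For Nudt3 the Hmga1 add-back differed from KO by -0.02 (95% interval -0.28 to 0.23) and the Hmga2 add-back by -0.14 (-0.39 to 0.12), both well inside the 1.10 that separates the derived lines from WT. For Hydin the differences were -0.03 (-0.41 to 0.35) and 0.40 (0.02 to 0.78), the latter away from WT. For Tuba3a the Hmga1 add-back differed from KO by -0.53 (-0.95 to -0.11) and the Hmga2 add-back by -0.13 (-0.54 to 0.29), values to be read beside the rise of 2.61. Neither of these survived adjustment over all genes. Outside the Y chromosome the widest intervals were those of AI413582 and Wt1, and for AI413582 the Hmga1 add-back stood at -0.73 (-1.76 to 0.30) relative to KO.

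**Figure D3:**
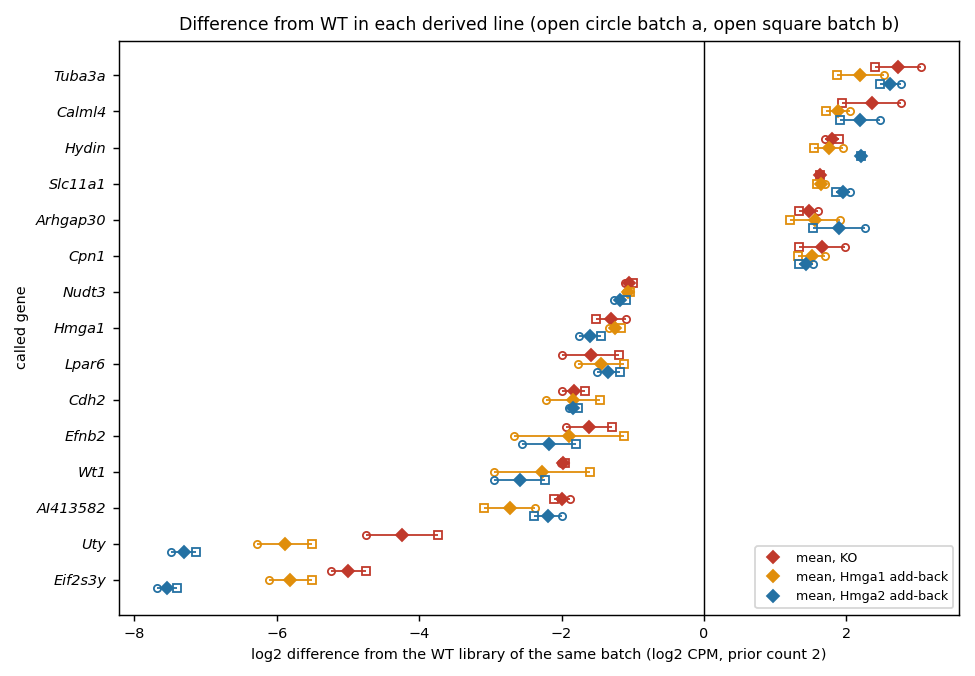
Log2 difference of each called gene from the WT library of the same batch (horizontal axis, log2 CPM with a prior count of 2) in KO (red), the Hmga1 add-back (orange) and the Hmga2 add-back (blue). Open symbols are batches a and b and diamonds their mean; the lines lie furthest apart for Uty and Eif2s3y, where KO is nearest to 0.

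The line with the full deletion of Hmga1 allows a look at the same genes in an independently made line. There 9 of 13098 genes (0.0687%) were called against the WT libraries of that experiment. Of the 15 genes 11 had the same sign in both experiments and 4 had the opposite sign. Hmga1, the gene targeted in both lines, is among the 11. The share of same signs over all genes was not determined, so that this count is a description. The difference between both effects was tested in a joint fit of all 15 libraries, which called 12 of 13671 genes (0.0878%), 6 of them among the 15. Nudt3 and AI413582, the called neighbours of Hmga1, were lower in the full deletion too. Nudt3 had a log2 fold change of -0.80 (SE 0.21, adjusted p = 0.0561, edgeR) and AI413582 -0.70 (SE 0.24, adjusted p = 0.0873, edgeR), neither called. Before adjustment, p in edgeR was below 0.05 for 4837 of 13050 genes in that experiment. Nudt3 had 115 to 125 CPM in the deletion and 176, 289 and 167 in its WT libraries. On tables normalized separately, all of these were above the 75.8 to 97.2 CPM of the WT libraries used here. For Nudt3 the difference between the effects was -0.29 (SE 0.24, adjusted p = 0.445, edgeR), and for AI413582 it was -1.68 (SE 0.39, adjusted p = 0.0517, edgeR). Uty fell in both lines, by 5.47 and by 4.07 on the log2 scale, and the difference was not called (adjusted p = 0.235, edgeR). Eif2s3y was at -5.94 in the derived lines and -1.44 in the full deletion, and here the difference of -4.48 was called (adjusted p = 0.00189, edgeR).

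The genes that rose behaved otherwise. Hydin had a log2 fold change of 1.95 in the derived lines and -0.96 in the full deletion, a difference of 2.93 (SE 0.32, adjusted p = 0.00136, edgeR). Calml4 had 2.21 and -1.59, a difference of 3.82 (SE 0.44, adjusted p = 0.00189, edgeR), and Arhgap30 1.66 and -1.15, a difference of 2.83 (SE 0.37, adjusted p = 0.00401, edgeR). Tuba3a had 2.61 and 0.39, a difference of 2.22 (SE 0.29, adjusted p = 0.00401, edgeR). Slc11a1 and Cpn1 had 0.46 and 0.30 in the full deletion, and their differences of 1.34 and 1.30 were not called.

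The WT libraries themselves were not at the same level in the 2 experiments for these genes. Hydin had 23.96, 38.8 and 23.5 CPM in the WT libraries of the deletion experiment, against 6.64 to 9.0 in those used here and 21.8 to 41.8 in the derived lines. Calml4 had 12.1, 26.3 and 13.4 CPM, Arhgap30 38.2, 73.3 and 36.3, and Tuba3a 14.6, 9.87 and 13.2. For all 6 called genes that rose, the 3 WT libraries of the deletion experiment lay above all 3 WT libraries of this comparison, and their mean was nearer to the derived lines than to WT on the log scale. For the 9 that fell this held for 1 gene, Lpar6, with 2.99, 1.29 and 3.95 CPM. The share over all genes was not determined, and the 15 genes had been chosen by their difference from the WT libraries used here. The 2 tables were normalized separately and come from different experiments, so that these levels are set side by side and were not tested.

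**Figure D4:**
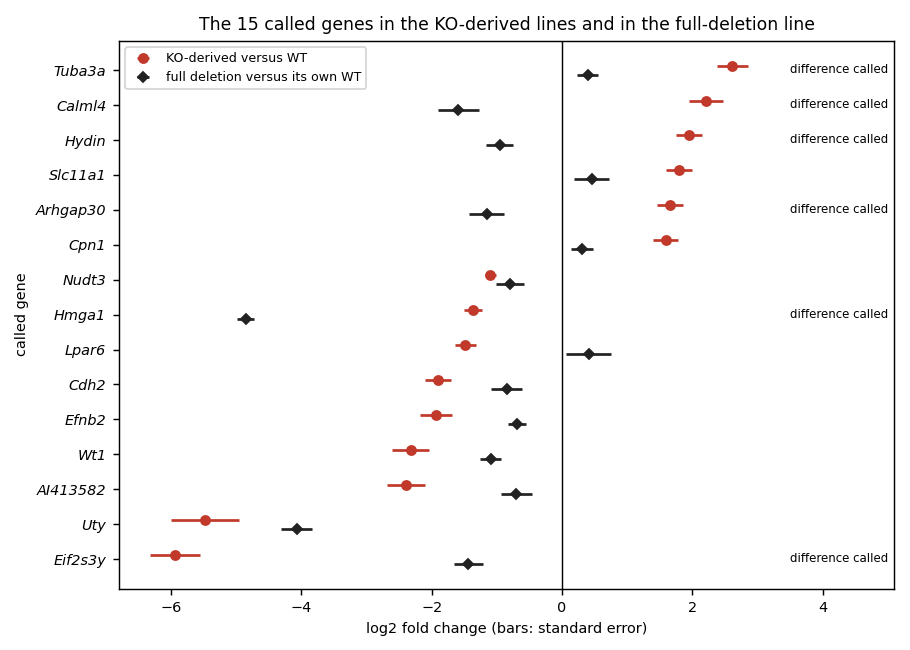
Log2 fold change with its standard error for the 15 called genes in the derived lines against WT (red circles) and in the full-deletion line against its own WT (black diamonds). Hydin, Calml4, Arhgap30 and Lpar6 lie on opposite sides of 0 in both experiments, and a called difference between the effects is written at the right.

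A stretch of chromosome 4 stood out when the tested genes were put in chromosomal order. From Aldh4a1 to Tnfrsf1b (NCBIM37, chr4:139178781-144836773) 51 consecutive genes all had a log2 fold change above 0, with a median of 0.79 and a range from 0.04 to 3.14. This run was found after the values were seen, so that it is described without a test. The next longest run of genes on 1 side of 0, on chromosome 13, had 21 genes and a median of 0.18. Of the 10 longest runs the one with the median closest to that on chromosome 4 held 14 genes on chromosome 5, from Ddx54 to Trafd1, with a median of 0.65, a length that windows of 20 genes do not resolve. Among the 13205 windows of 20 consecutive genes that do not touch the run, the median log2 fold change had a central 95% range from -0.17 to 0.22 and a maximum of 0.56, whereas the 32 windows inside the run lay between 0.69 and 0.95. Of the 148 genes called at the wider threshold, 11 were in the run, and none of the 15.

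Genes of the run were named after their values were seen. Members called at the wider threshold included Padi2, Padi3 and Padi4, neighbouring genes of enzymes that turn arginine into citrulline in proteins. Padi2 had 5.06 to 8.41 CPM in WT, 43.5 and 22.5 in KO a and b, 80.9 and 18.1 in the Hmga1 add-back, and 72.6 and 21.97 in that of Hmga2, with batch a above batch b in each derived line. Casp9, the initiator caspase of the mitochondrial pathway, had 9.30 to 12.6 CPM in WT and 19.003 to 37.7 in the derived libraries, a log2 fold change of 1.05 (SE 0.19, adjusted p = 0.0337, edgeR). Crocc, a component of the ciliary rootlet, had a value of 1.14 (SE 0.21, adjusted p = 0.0356, edgeR). The 16 genes of the run with a mean count of at least 1000 had a median of 0.49, a factor of 1.40, and lay between 0.04 (Epha2) and 0.83 (Necap2), whereas the median of all such genes was -0.04.

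The rise was present in every derived library. The median difference of the run from the WT library of the same batch was 0.69 and 0.54 in KO a and b, 1.07 and 0.72 in the Hmga1 add-back, and 0.82 and 0.55 in that of Hmga2. In 28 of the 51 genes (54.9%) all derived libraries were above all WT libraries, against 5.15% of all genes. The run was chosen by values above 0 in these same libraries, so that this count is a description. The 25 tested genes before the run had a median of 0.03 and the 25 after it -0.26. After the run the full deletion was lower too, with a median of -0.58. In the full deletion the 46 genes of the run with a value had a median of 0.30, against 0.04 for all genes, and the 16 well expressed ones -0.11, against -0.13. The number of copies of the region was not measured in these data. From input DNA of KO and WT, averaged over whole chromosomes, the paper reports the same karyotype, and it gives no value for this region.

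**Figure D5:**
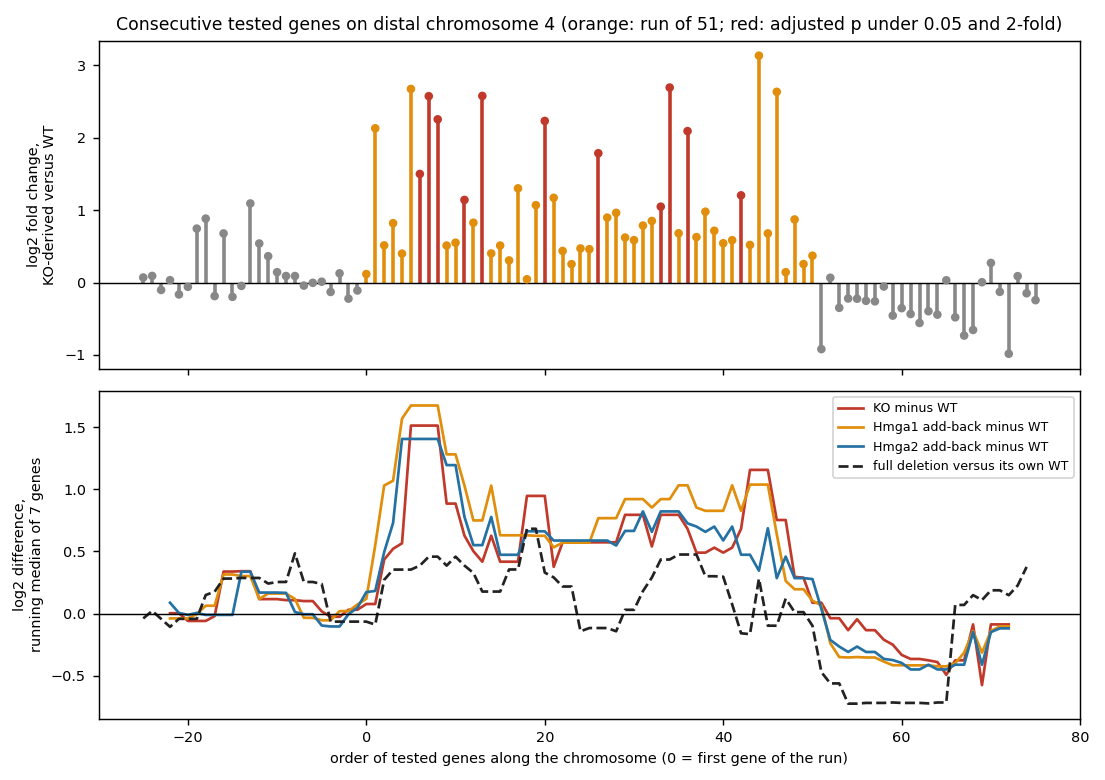
Upper panel, log2 fold change of the derived lines against WT for consecutive tested genes on distal chromosome 4, with the run of 51 genes in orange and members called at the wider threshold in red. Lower panel, running median over 7 genes of the difference from WT in each derived line and in the full deletion (dashed); the 3 derived lines rise at its start and fall below 0 after its end, and the full deletion is lower than they are over most of the run.

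Further groups of genes appeared at the wider threshold. All 148 genes had the 6 derived libraries on 1 side of the WT library of the same batch, against 27.4% of all genes, and 128 did not overlap with WT, against 8.84%. Both counts are for genes chosen by the same comparison and are a description. The list with the highest median held genes of 2-cell-like cells, a small and changing fraction of ESC in which genes of the 2-cell embryo are switched on. Of the 14 tested 6 rose (Zscan4e, Zscan4f, Gm4340, Gm5662, Gm8300 and Usp17lc) and 0 fell, against 0.719% of all genes higher and 0.345% lower, and the median log2 fold change was 3.0, against 0.00 for all genes. Zscan4f, a zinc finger gene that marks this state, had 0.696, 1.71 and 0.996 CPM in WT a, b and c, 24.8 and 9.58 in KO, 14.8 and 11.9 in the Hmga1 add-back, and 4.32 and 7.39 in that of Hmga2. The WT libraries were below all derived ones, and the Hmga2 add-back was lowest among these. Its log2 fold change was 3.51 (SE 0.74, adjusted p = 0.0469, edgeR). These genes are copies of each other in part and share reads, and the list had been chosen with earlier results known.

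Of 19 formative and germ layer genes tested, 1 fell at this threshold and 0 rose, against 0.345% and 0.719% of all genes. The gene that fell was the neural gene Sox1 (-1.26, SE 0.25, adjusted p = 0.0409, edgeR). Values below 0 were found for 15 of the 19, against 6943 of 13912 over all genes. The median of the 19 was -0.63 and ranged from -0.72 to -0.13 over the alternatives. Transcriptional regulators called at the wider threshold, chosen after their values were seen, went in both directions. Gbx2 (-1.68), Sp5 (-3.30), Bcl11a (-1.96), Id1 (-1.34) and Id2 (-1.10) were lower, while Sohlh2 (1.56), Rhox10 (1.70) and Rhox13 (1.03) were higher. Gbx2 had 208, 126 and 124 CPM in WT, 37.9 and 86.2 in KO, 36.6 and 108 in the Hmga1 add-back, and 31.5 and 91.6 in that of Hmga2. In all derived lines the fall was larger in batch a than in batch b. Of 23 pluripotency genes 0 were called in either direction, and their median was 0.10. Tbx3, a T-box factor, had an adjusted p of 0.0431 in edgeR but was less than 2-fold different (0.68).

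Of the 30 imprinted genes tested 3 fell and 0 rose, against 0.345% and 0.719% of all genes. Plagl1, a zinc finger gene expressed from the paternal allele, had 3.004, 2.48 and 2.07 CPM in WT a, b and c, whereas the derived libraries had 0.0574 to 0.456, a log2 fold change of -3.73 (SE 0.51, adjusted p = 0.0149, edgeR). Grb10, an adaptor of growth factor receptors, and Mest, which encodes a hydrolase, had values of -1.04 each. Of the 31 genes of germ cells and meiosis 2 rose at the wider threshold (0.719% of all genes) and 0 fell (0.345%). The 2 were Sohlh2, a transcription factor of early germ cells (1.56, SE 0.34), and Smc1b, the meiotic cohesin subunit (1.62, SE 0.33). Values above 0 were found for 25 of the 31, against 6969 of 13912 over all genes. The median of the 31 was 0.48. Tex15 (0.54, adjusted p = 0.0316, edgeR) and Tex11 (0.71, adjusted p = 0.0397, edgeR) were less than 2-fold higher. Sohlh2 had 8.63 to 9.20 CPM in WT, 20.1 and 19.2 in KO a and b, 24.4 and 18.1 in the Hmga1 add-back, and 40.0 and 36.5 in that of Hmga2. Of 21 p53 target genes, 10 feeder fibroblast genes and 9 Hmgb and Hmgn genes 0 were called, with medians of 0.14 (-0.16 to 0.44 over the alternatives), 0.23 (0.13 to 0.56) and -0.12 (-0.29 to -0.03). Within the feeder list the derived and WT libraries did not overlap for Vim (-0.89) and Col5a1 (0.73), which went in opposite directions. Among the 7 tested genes of the Lin28 and Igf2bp group, which includes Hmga1 and Hmga2, Hmga1 alone was called. Lin28b had an adjusted p of 0.0305 in edgeR but was less than 2-fold different (-0.54). Lin28a and Igf2bp1, which bind RNA, had values of -0.51 and -0.35, and neither passed the test.

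Base composition is given as a description, since Hmga proteins prefer AT-rich DNA. The called genes had a median AT content of 53.3% over the whole gene (range 42.3 to 65.1), against 53.7% for the 13659 tested genes with a position. For the genes called at the wider threshold the medians were 51.3% for those higher and 55.4% for those lower, with an interquartile range over all genes from 49.3% to 57.5%. These values were not tested.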

How the data were processed

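Members and gene lists were chosen with earlier results of these data known. The authors trimmed the first 3 bases of 50-base single-end reads, mapped them to mm9 (QuasR, bowtie), placed reads with several alignments at random, and counted them per UCSC known gene by strand. The deposited values are these raw counts. The table also gives exonic width in bases (another unit), used per the file headers for levels per kilobase. Genes averaging 10 counts or more were fitted with edgeR 4.0.16 (TMM, quasi-likelihood, batch letter as a term) in R 4.3.3, with Benjamini-Hochberg adjustment, on the 9 libraries. Add-backs were tested against KO in a fit with 4 groups. A joint fit of 15 libraries tested the difference from the full deletion. The batch letters pair libraries, as the study states, and log2 differences between batches a and b correlated with those of WT at 0.43, 0.32 and 0.34 over genes. Log2 differences by batch used a prior count of 2. Genes named were all those called, Hmga1, Hmga2, Tuba3a, Hydin, Nudt3, genes within 500 kb of Hmga1, and from each list the members called and at most 4 others of highest mean count. Positions and sequences came from NCBIM37 with GENCODE M1 for 13659 of 13912 genes. Depth was 13465399 to 34952136 counts, and intervals on counts cover counting error only. Alternatives were limma 3.58.1, DESeq2 1.42.0, other scalings, filters and thresholds, no batch term, and leaving out libraries or lines. Scripts were tested on simulated data.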

Additional observations from a re-analysis of the deposited data

Results flagged for a closer look

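Of the values of the called genes in the 6 derived libraries, 1 gene had a library far from the others. Uty was highest in KO b, with a gap to the next library of 0.669 of the whole range, and about 1 in 20 such groups is flagged by chance.

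The effect in the derived lines differed from that in the full deletion, by the joint test in edgeR, for 12 genes. Among the called genes the difference (derived minus deletion, log2) was -4.48 for Eif2s3y, 2.22 for Tuba3a, 3.496 for Hmga1, 2.93 for Hydin, 3.82 for Calml4 and 2.83 for Arhgap30. The full deletion takes the coding sequence of Hmga1 out of the counted exons.

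The other 6 genes were Fmr1nb (1.91), Ldhc (5.51), D1Pas1 (1.33), Spn (1.46), Peg13 (4.35) and Nab2 (1.47). Ldhc, a lactate dehydrogenase of germ cells, had means of 0.0488 CPM in WT and 0.885 in the derived lines, and 1.35 to 1.83 CPM in the WT libraries of the deletion experiment against 0.544 to 0.734 in the deletion. Fmr1nb had means of 9.89 and 21.1 CPM in WT and the derived lines, and 40.4 to 59.8 against 27.2 to 32.8 in the deletion experiment. For both genes the WT libraries of the deletion experiment thus lay above the mean of the derived lines, on tables normalized separately. For Ldhc the ranges overlapped, with 1.37 CPM in KO b and 1.35 in the lowest of these WT libraries. Ldhc had 11 to 36 counts in each derived library and at most 2 in any WT library used here.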

How the results depend on the processing

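The comparison of the derived lines with WT called 15 genes, and the count depended on the tool and on single libraries. It was 26 without a filter on low counts, 182 with DESeq2's Wald test, 9 (6 of the 15) with 4 groups in the fit, 52 in limma-trend with the line as a correlated block (estimated correlation -0.14) and 148 at an adjusted p under 0.05, still with at least 2-fold. Limma-trend called 14 genes, 9 higher and 5 lower, of which 11 were among the 15. Without the replicate block 15 genes were called, 8 of them shared. Leaving out 1 library gave 0 to 204 genes: 0 without WT a (844 genes at an unadjusted p under 0.05 in edgeR), 204 without WT b, 15 without WT c, 20 and 3 without KO a and b, 3 and 7 without Hmga1 add-back a and b, and 12 and 5 without Hmga2 add-back a and b. Leaving out a whole line gave 2 (without KO), 5 (without the Hmga1 add-back) and 4 (without the Hmga2 add-back). The 15 genes kept their direction in all of these. Eif2s3y stayed called in 22 of 23 alternatives, Nudt3 in 21 and Uty in 19, whereas AI413582 was called in 10 of 22 and Efnb2 in 10 of 23. The exception for a named gene was Hmga2, at 2.31 in the pooled comparison and -0.058 without the Hmga2 add-back. Hmga2 add-back against KO gave 2 genes with limma-trend and 0 to 2 with 1 library left out, 0 without KO a or without KO b. Over 23 alternatives the median of the run on chromosome 4 lay between 0.64 and 0.92, a check chosen after seeing the data. Genes with few counts are limited by depth: AI413582 had 3 counts in Hmga1 add-back b.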

Other observations

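Other genes with an adjusted p under 0.05 and at least 2-fold different included pairs or groups of related function that were named after their values were seen. Crabp1, a binding protein of retinoic acid, had 11.2 to 13.7 CPM in WT and 20.8 to 44.8 in the derived libraries, and Rxrg, a retinoid receptor, had a log2 fold change of -2.01. M1ap, a gene of male meiosis, had 0.789 to 1.24 CPM in WT and 3.03 to 6.01 in the derived libraries, a log2 fold change of 1.98 (SE 0.27, adjusted p = 0.0133, edgeR). Rhox10 and Rhox13, homeobox genes of the X chromosome, had values of 1.70 and 1.03. Ccnd2, a cyclin of the G1 phase, had a value of -1.16. Of the 148 genes, 11 were on chromosome 4 within the run described above, and the remaining ones were spread over all chromosomes, with medians over all tested genes of a chromosome between -0.04 and 0.03 except on Y.

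For the 139 of the 148 genes with values above 0 in all libraries compared, the WT libraries of the deletion experiment were nearer to the derived lines than to WT in 42 of 94 genes that rose and 21 of 45 that fell. The share over all genes was not determined, and the 148 genes had been chosen by their difference from the WT libraries used here. These tables were normalized separately and the levels were not tested.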
